A study of Arabidopsis thaliana with 8 samples.

Results

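The genes of the auxin signalling core were followed through root tips of Arabidopsis thaliana that had been treated with abscisic acid (ABA) or carried mutations of brassinosteroid signalling. They were chosen by locus identifier as the Aux/IAA, ARF and TIR1/AFB genes, 49 of the 33557 genes measured: 29 Aux/IAA genes, 15 ARF genes and 5 receptor genes. The ARF genes are ARF1 to ARF11 and ARF16 to ARF19, not the whole ARF family, and counts and sums cover these members only. All groups were of the Columbia background, and RNA came from the last 1 cm of roots of seedlings grown for 7 days on 1/2 MS medium. The groups were wild type given 100 μM ABA for 3 h (Col+ABA), the bin2-1 mutant, the bzr1-D/bin2-1 double mutant, and wild type without ABA (Col-ABA), with 2 libraries each, 8 in all. Whether the mutants were also given ABA is not in the labels, nor whether the second library of a group came from separately grown plants. bin2-1 is an allele that makes a hyperactive form of BIN2, a GSK3-like kinase that holds brassinosteroid signalling off, while the bzr1-D product is BZR1, a transcription factor that BIN2 inactivates, in a stable version. Both alleles are present in whole plants, so every cell type of the root carries them.

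Auxin acts by removing a repressor. TIR1 and the AFB proteins are the F-box subunits of an E3 ubiquitin ligase and bind auxin together with an Aux/IAA protein, which is then degraded; Aux/IAA proteins otherwise hold ARF transcription factors inactive with co-repressors of the TPL family. Most Aux/IAA genes are themselves transcribed in response to auxin, which makes them a feedback loop. In roots this pathway sets the size of the meristem, gravitropic bending, root hairs and the founding of lateral roots. BIN2 is known to phosphorylate ARF2, ARF7 and ARF19, which links the brassinosteroid pathway to this one at the protein level, a level that transcript values do not show.

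The 3 deposited tables each compare a pair of groups and give 1 level per group in FPKM, fragments scaled for transcript length and library size, together with the fold change between them and its p and q. There is no value per library, so no replicate error stands beside a level and library depth is unknown. The p and q are the authors' own; their test is not named in what was available. A gene is called past the threshold at q under 0.05, where q is adjusted over all tested genes of the table. A gene counts as tested when p lies under 1. In bulk roots, fewer cells of a type and less RNA per cell cannot be told apart. The 6 root markers examined (WOX5, PLT1, SCR, SHR, COBL9 and WER) were present in every group, between 1.82 and 38.5 FPKM, and the 2 leaf markers (LHCB1.2 and RBCS1A) lay between 0.215 and 3.90 FPKM. The summed level of the root markers was 64.4 FPKM with ABA and 76.9 FPKM without ABA, 114 FPKM in bin2-1 and 82.0 FPKM in untreated wild type, and 131 FPKM in bzr1-D/bin2-1 and 119 FPKM in bin2-1; that of the leaf markers was 2.61 and 2.97, 5.49 and 3.17, and 4.11 and 5.73 FPKM in the same order. Single markers moved more than these sums. The stem cell niche marker WOX5 had 4.47 FPKM with ABA and 1.82 FPKM without ABA, 10.7 FPKM in bin2-1 and 1.94 FPKM in untreated wild type, and 4.06 FPKM in bzr1-D/bin2-1 and 11.2 FPKM in bin2-1, past the threshold each time. The root hair marker COBL9 had 36.9 FPKM in bin2-1 and 12.7 FPKM in untreated wild type. SCR and WER were lower with ABA (14.5 and 20.8 FPKM, and 14.5 and 20.7 FPKM, with and without ABA). PLT1 had 8.14 FPKM in bzr1-D/bin2-1 and 3.31 FPKM in bin2-1, and WER had 28.4 and 18.8 FPKM, both higher. LHCB1.2 had 3.01 FPKM in bin2-1 and 0.322 FPKM in untreated wild type, and 0.215 FPKM in bzr1-D/bin2-1 and 3.14 FPKM in bin2-1, both past the threshold, while RBCS1A passed in no comparison. ABI5, a transcription factor induced by ABA, had 8.94 FPKM with ABA and 0.937 FPKM without ABA. It also had 3.22 FPKM in bin2-1 and 0.998 FPKM in untreated wild type, and 1.24 FPKM in bzr1-D/bin2-1 and 3.35 FPKM in bin2-1. ABI5 was past the threshold each time, so it does not mark the ABA treatment alone. BIN2 had 66.1 FPKM in bin2-1 and 102 FPKM in untreated wild type, and BZR1 had 34.4 and 72.2 FPKM, both past the threshold. Both alleles change the protein, so transcript levels do not check the genotype. The part of cell composition in the results below was not tested.

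The transcript levels of the family spanned more than 3 orders of magnitude in untreated wild type, where 5 genes reached 100 FPKM, 40 lay between 1 and 100 FPKM and 4 were below 1 FPKM. The 5 most abundant were IAA16 (AT3G04730, 369 FPKM), IAA2 (AT3G23030, 356 FPKM), IAA9 (AT5G65670, 206 FPKM), ARF2 (AT5G62000, 133 FPKM) and IAA17 (AT1G04250, 103 FPKM). IAA17, also known as AXR3, is a repressor whose stabilised form makes roots agravitropic. The least abundant were IAA6 (0.868 FPKM), IAA32 (0.474 FPKM), IAA29 (0.261 FPKM) and IAA15, which was listed at 0 in every group. The ARF activators ARF5, ARF6, ARF7, ARF8 and ARF19, which have a glutamine-rich middle region, lay between 6.74 and 27.5 FPKM, and the 10 ARFs classed as repressors between 2.34 and 133 FPKM. The 5 receptors among the members lay between 21.6 and 75.4 FPKM, in the order TIR1 (AT3G62980), AFB1 (AT4G03190), AFB3 (AT1G12820), AFB5 (AT5G49980) and AFB2 (AT3G26810). AFB4 is also of the receptor family but is not among the members, and it had 6.06 FPKM in untreated wild type. With no spread between libraries, it cannot be said which neighbours in these orders differ.

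**Figure D1:**
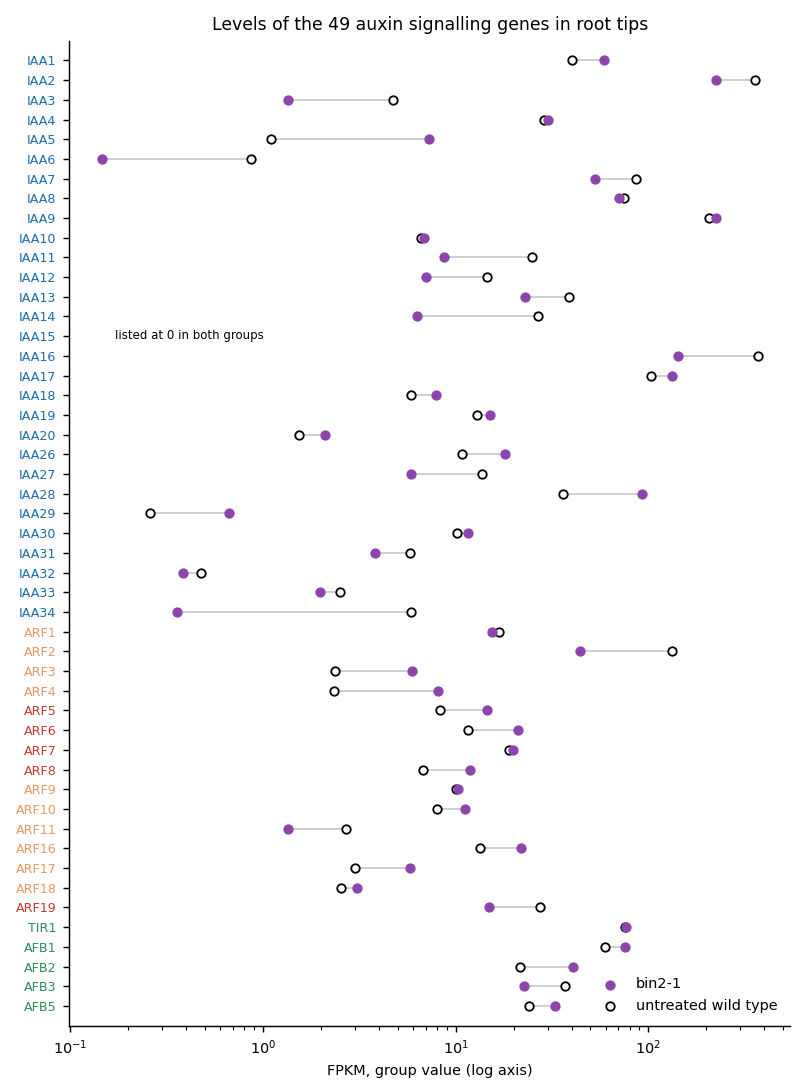
FPKM level of each gene in bin2-1 (filled) and untreated wild type (open), on a log axis, from the table that compares these groups; gene names are coloured by class (blue Aux/IAA, red activator ARF, orange repressor ARF, green receptor). IAA16 had 143 FPKM in bin2-1 and 369 FPKM in untreated wild type, and ARF2 had 44.4 and 133 FPKM in the same groups; error bars are absent because each group has 1 value.

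Summed over the family, the levels moved with a few abundant genes. To set the 4 groups side by side, the values of the ABA and bzr1-D tables were brought to the scale of the bin2-1 table by the near-constant factor between the tables (1.07 for untreated wild type and 0.959 for bin2-1). The 29 Aux/IAA genes summed to 1686 FPKM with ABA, 1159.5 FPKM in bin2-1, 987 FPKM in bzr1-D/bin2-1 and 1490 FPKM in untreated wild type. Without IAA2 and IAA16 the sums were 812, 791, 715 and 764 FPKM in the same order, so most of the spread lay in this pair. ARF2, a repressor that limits organ growth, made up 53.1% of the ARF sum with ABA, 21.2% in bin2-1, 24.3% in bzr1-D/bin2-1 and 49.7% in untreated wild type. The summed level of activator ARFs per summed level of repressor ARFs was 0.318 with ABA, 0.645 in bin2-1, 0.579 in bzr1-D/bin2-1 and 0.378 in untreated wild type. With ARF2 left out of the repressors this ratio was 1.06, 0.991, 0.939 and 1.197, so the higher ratio in both mutants lay with ARF2. The receptors summed to 199, 248, 228 and 217 FPKM. These sums carry no test.

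**Figure D2:**
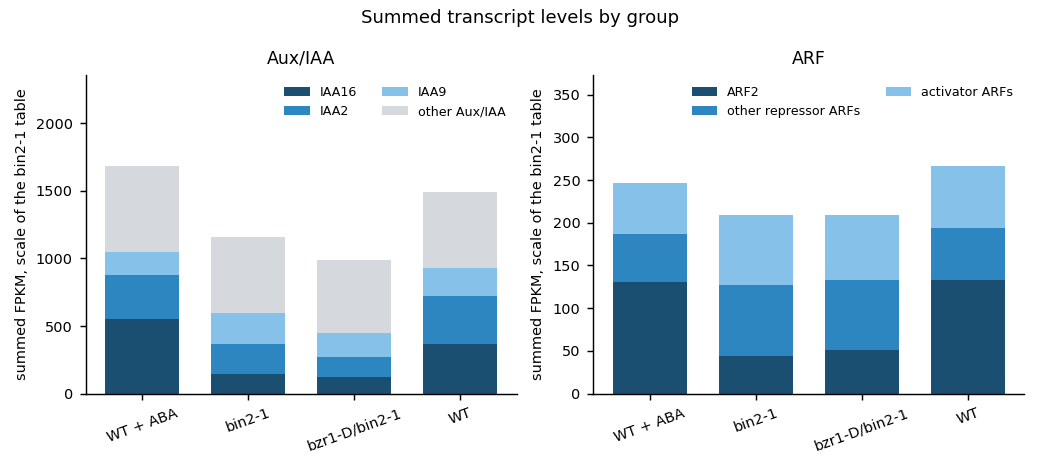
Summed FPKM of the Aux/IAA genes (left) and the ARF genes (right) in the 4 groups, on the scale of the bin2-1 table, with the most abundant genes as separate segments. The IAA16 segment is 554 FPKM with ABA, 143 FPKM in bin2-1, 125 FPKM in bzr1-D/bin2-1 and 369 FPKM in untreated wild type.

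ABA raised a set of Aux/IAA repressors in wild-type roots. Of 27 tested Aux/IAA genes 10 were higher and 2 lower with ABA, against a background in which 15.1% of all tested genes were higher and 9.51% lower in the authors' deposited table (24.6% in either direction). The median log2 fold change of the tested Aux/IAA genes was 0.13, beside 0.01 over all genes tested. The 4 that changed at least 2-fold were all higher; with 1 ARF gene that makes 5 of 47 members, beside 11.1% of all genes tested. IAA30 (AT3G62100), which lacks the degron through which auxin triggers turnover, had 31.4 FPKM with ABA and 9.59 FPKM without ABA (1.71 on the log2 scale, with q = 0.000385, in the authors' deposited table; values in brackets below are log2 fold changes with their q). IAA3 (AT1G04240), also known as SHY2, which limits the root meristem by lowering auxin transport, had 14.4 FPKM with ABA and 4.45 FPKM without ABA (1.70, q = 0.000385 in the authors' deposited table). IAA5 (AT1G15580) had 3.63 FPKM with ABA and 1.04 FPKM without ABA (1.81, q = 0.00789 in the authors' deposited table), and its close relative IAA6 had 2.73 and 0.815 FPKM (1.74, q = 0.00402). In these 4 genes the level with ABA was more than 3 times the level without it.

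The other rises with ABA were smaller. IAA13, IAA16, IAA18, IAA26, IAA28 and IAA34 lay between 0.49 and 0.74 in log2 units in the authors' deposited table. In FPKM the step was widest for IAA16, with 519 FPKM with ABA and 346 FPKM without ABA (q = 0.00231 in the authors' deposited table). The 2 falls were of IAA14 (AT4G14550), also known as SOLITARY-ROOT and needed to be degraded before lateral roots form, and of IAA1 (AT4G14560). IAA14 had 16.1 FPKM with ABA and 25.0 FPKM without ABA (-0.63, q = 0.00107), and IAA1 had 25.8 and 37.7 FPKM (-0.55, q = 0.00738), both in the authors' deposited table. The abundant IAA2, IAA9 and IAA17 were not past the threshold, at -0.15, -0.24 and 0.21 in log2 units in the authors' deposited table.

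Among the ARF genes ABA changed 4 of 15, 1 higher and 3 lower, a share of 26.7% that is near the 24.6% of all genes in the authors' deposited table. ARF19 (AT1G19220), an activator that works with ARF7 in lateral root initiation, had 14.1 FPKM with ABA and 25.8 FPKM without ABA (-0.87, q = 0.000385 in the authors' deposited table). Its partner ARF7 had 16.5 and 17.8 FPKM (-0.11, q = 0.860). The repressor ARF11 had 1.17 FPKM with ABA and 2.52 FPKM without ABA (-1.11, q = 0.000385), ARF17 had 1.77 and 2.81 FPKM (-0.67, q = 0.0189), and ARF4 had 3.97 and 2.20 FPKM (0.85, q = 0.000385), each in the authors' deposited table. ARF2 stood at 123 FPKM with ABA and 124 FPKM without ABA. Of the receptors, AFB1 had 41.1 FPKM with ABA and 55.6 FPKM without ABA (-0.44, q = 0.0422) and AFB5 had 16.7 and 22.5 FPKM (-0.43, q = 0.0247) in the authors' deposited table. TIR1 had 81.7 FPKM with ABA and 70.8 FPKM without ABA, AFB2 had 17.7 and 20.2 FPKM, and AFB3 had 29.0 and 34.7 FPKM, with q between 0.358 and 0.438 in the authors' deposited table. Receptors past the threshold were thus 2 of 5, both lower with ABA, where 9.51% of all tested genes were lower. At q under 0.01 the count of lower receptors was 0.

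**Figure D3:**
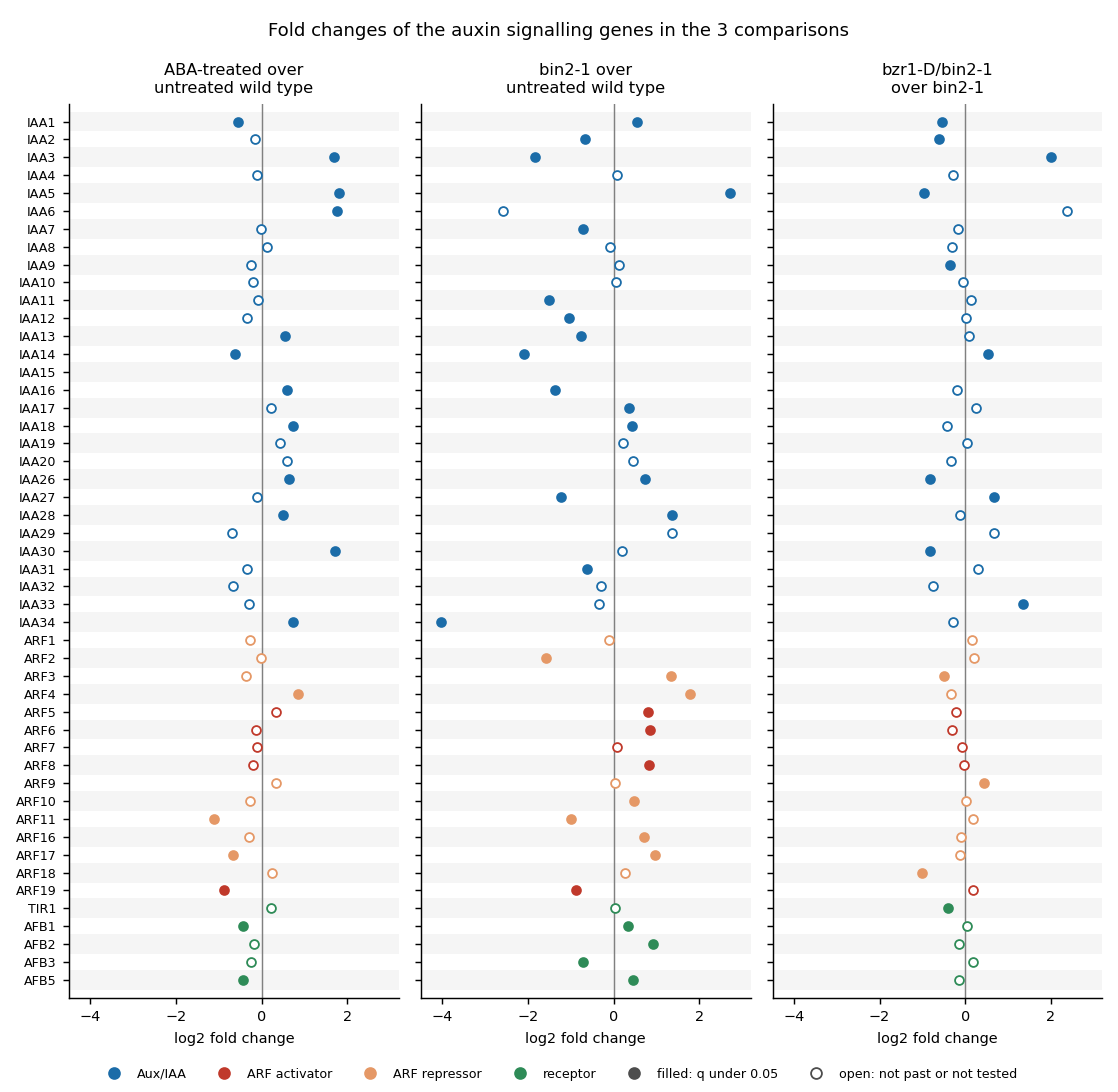
Log2 fold change of each gene in the 3 comparisons, coloured by class; filled points are past q 0.05 and open points are not past it or not tested. IAA15, listed at 0, has no point. In bin2-1 over untreated wild type, 32 of 48 tested genes are filled, and in the other comparisons 18 of 47 and 14 of 46.

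In bin2-1 roots 32 of the 48 members tested passed the threshold against untreated wild type, 17 with higher and 15 with lower levels, where 51.0% of all tested genes were past the threshold in the authors' deposited table (25.4% higher and 25.6% lower). The 2 gene classes split differently: Aux/IAA genes had 6 rises and 11 falls among 28 (median log2 fold change -0.19), and ARF genes 8 rises and 3 falls among 15 (median 0.48), beside a median of -0.01 over all tested genes. The difference between the classes was not tested. Changes of at least 2-fold past the threshold were seen in 13 of the tested genes, 4 higher and 9 lower, where 20.9% of all tested genes changed as much.

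The Aux/IAA genes that fell in bin2-1 included the most abundant of the family. IAA16 had 143 FPKM in bin2-1 and 369 FPKM in untreated wild type (-1.37, q = 0.000188 in the authors' deposited table), and IAA2 had 226 and 356 FPKM (-0.66, q = 0.000188). IAA14 had 6.29 FPKM in bin2-1 and 26.7 FPKM in untreated wild type (-2.09), and IAA3 had 1.34 and 4.75 FPKM (-1.82), both at q = 0.000188 in the authors' deposited table. IAA11 had 8.73 and 24.8 FPKM (-1.51), IAA27 had 5.90 and 13.8 FPKM (-1.22), and IAA12, also known as BODENLOS, the partner of ARF5 in embryonic root formation, had 7.05 and 14.5 FPKM (-1.04), each at q = 0.000188 in the authors' deposited table. The steepest fall was of IAA34, a non-canonical member without the degron, which had 0.358 FPKM in bin2-1 and 5.86 FPKM in untreated wild type, 16.4-fold lower (q = 0.0250 in the authors' deposited table). The level of IAA34 in bin2-1 was under 1 FPKM, so the size of this fall is uncertain. IAA34 also overlaps a gene on the same strand, given below. IAA7, IAA13 and IAA31 fell by less than 2-fold and lay between -0.76 and -0.61 in log2 units in the authors' deposited table. IAA6, at 0.146 FPKM in bin2-1 and 0.868 FPKM in untreated wild type, was not past the threshold (-2.57, q = 0.0765).

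The rises among Aux/IAA genes were led by IAA5 and IAA28. IAA5 had 7.23 FPKM in bin2-1 and 1.10 FPKM in untreated wild type (2.71, q = 0.000188 in the authors' deposited table). IAA28, a repressor whose stabilised form suppresses lateral roots, had 92.9 and 36.3 FPKM (1.36, q = 0.000188). IAA1, IAA17, IAA18 and IAA26 rose less, by 0.36 to 0.74 in log2 units in the authors' deposited table, IAA17 with 133 FPKM in bin2-1 and 103 FPKM in untreated wild type. IAA9, the third most abundant, had 224 FPKM in bin2-1 and 206 FPKM in untreated wild type (0.12, q = 0.486 in the authors' deposited table). IAA19, a further close relative of IAA5 and IAA6, had 15.1 and 12.9 FPKM (0.22, q = 0.263 in the authors' deposited table).

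Of the ARF genes, ARF2 fell and most others rose in bin2-1. ARF2 had 44.4 FPKM in bin2-1 and 133 FPKM in untreated wild type (-1.58, q = 0.000188 in the authors' deposited table). ARF19 had 14.9 and 27.5 FPKM (-0.88) and ARF11 had 1.34 and 2.69 FPKM (-1.001), both at q = 0.000188 in the authors' deposited table. ARF4 had 8.08 FPKM in bin2-1 and 2.34 FPKM in untreated wild type (1.79) and ARF3, also known as ETTIN, had 5.93 and 2.36 FPKM (1.33); both act in organ polarity and had q = 0.000188 in the authors' deposited table. The activators ARF5, also known as MONOPTEROS, ARF6 and ARF8 rose by 0.80, 0.85 and 0.82 in log2 units in the authors' deposited table. ARF10, ARF16 and ARF17, of which ARF10 and ARF16 act in the root cap, rose by 0.48, 0.70 and 0.96 in log2 units in the authors' deposited table. ARF1, ARF7, ARF9 and ARF18 were not past the threshold, lying between -0.11 and 0.27 in log2 units in the authors' deposited table.

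Of the 15 ARF genes 8 carry a target site of a small RNA listed below, and of these 7 rose and ARF2 fell in bin2-1; of the 7 without a site, ARF5 rose and 2 fell. This grouping was chosen with earlier results of these data known and carries no test. In plants, miR160 guides cleavage of ARF10, ARF16 and ARF17 transcripts, miR167 of ARF6 and ARF8, miR393 of TIR1 and AFB transcripts, and small RNAs made from the TAS3 transcript target ARF2, ARF3 and ARF4. The sequences are shown because the sites are a feature of the transcript sequence, although the choice to group by them was made with those results known. They were read from the RefSeq genome TAIR10.1 with its annotation, and 5′ to 3′ the mature miRNAs are, with the seed (bases 2 to 8) in capitals:
miR160a-5p: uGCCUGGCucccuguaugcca
miR167a-5p: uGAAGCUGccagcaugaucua
miR393a-5p: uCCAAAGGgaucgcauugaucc
The stretch of 21 bases of the TAS3 transcript that pairs best with ARF3 is:
TAS3, chr3:5862205-5862225, plus strand: uuucuugaccuuguaagaccc
The best ungapped site for each in the spliced transcript, on the sense strand with Watson-Crick paired bases in capitals, is given for the genes named above:
ARF10 site, chr2:12115741-12115761, plus strand: aGGaATACAGGGAGCCAGGCA
ARF16 site, chr4:14704141-14704161, minus strand: gGGttTACAGGGAGCCAGGCA
ARF17 site, chr1:29274189-29274209, plus strand: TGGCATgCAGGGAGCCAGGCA
ARF6 site, chr1:10686478-10686498, minus strand: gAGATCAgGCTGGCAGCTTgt
ARF8 site, chr5:14633841-14633861, plus strand: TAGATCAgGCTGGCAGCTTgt
ARF2 site, chr5:24913262-24913282, plus strand: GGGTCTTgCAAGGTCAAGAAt
ARF3 site, chr2:14325941-14325961, minus strand: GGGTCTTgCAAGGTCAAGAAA
ARF4 site, chr5:24309507-24309527, minus strand: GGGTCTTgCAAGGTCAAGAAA
TIR1 site, chr3:23273727-23273748, minus strand: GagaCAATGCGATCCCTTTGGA
AFB1 site, chr4:1405341-1405362, minus strand: GagaCcATGCGATCCCTTTGGA
AFB2 site, chr3:9870237-9870258, plus strand: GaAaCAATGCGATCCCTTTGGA
AFB3 site, chr1:4369085-4369106, minus strand: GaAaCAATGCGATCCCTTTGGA
The miR160 sites left 2, 3 and 1 bases unpaired in ARF10, ARF16 and ARF17, and the miR167 sites 4 and 3 in ARF6 and ARF8. Against miR393, TIR1 left 3 bases unpaired, AFB1 4, AFB2 2 and AFB3 2, while the best window of AFB5 left 8. Among the other members the best window left at least 8 bases unpaired for miR160, 7 for miR167 and 6 for miR393. All the miRNA sites shown lie in coding sequence.

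Grouped by these sites, the 3 miR160 targets and both miR167 targets rose in bin2-1, where 25.4% of all tested genes did. Of all 15 ARF genes, these targets included, 8 rose. The TAS3 targets went both ways in bin2-1, ARF3 and ARF4 higher and ARF2 lower. So did the miR393 targets: AFB2 had 40.5 FPKM in bin2-1 and 21.6 FPKM in untreated wild type (0.91, q = 0.000188), AFB1 had 75.4 and 59.3 FPKM (0.35, q = 0.0467), AFB3 had 22.6 and 36.9 FPKM (-0.71, q = 0.00169) and TIR1 had 77.0 and 75.4 FPKM (0.03, q = 0.872), in the authors' deposited table. AFB5, which binds picloram-type auxins and lacks the site, had 32.6 and 23.98 FPKM (0.44, q = 0.00598 in the authors' deposited table). Of the 10 small RNA genes that were looked up, 8 precursors were listed at 0 in every group. These include MIR390A and MIR390B, whose miRNAs are not shown above. The mature RNAs were not measured in these tables. The TAS3 transcript had 11.1 FPKM in bin2-1 and 13.6 FPKM in untreated wild type (-0.29, q = 0.254 in the authors' deposited table), and the MIR167A transcript 0.145 and 0.438 FPKM (-1.59, q = 0.0921). With ABA, MIR167A was listed at 0, against 0.411 FPKM without ABA (q = 0.00262 in the authors' deposited table). ARF17 was the only miR160 or miR167 target past the threshold with ABA, and it was lower.

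**Figure D4:**
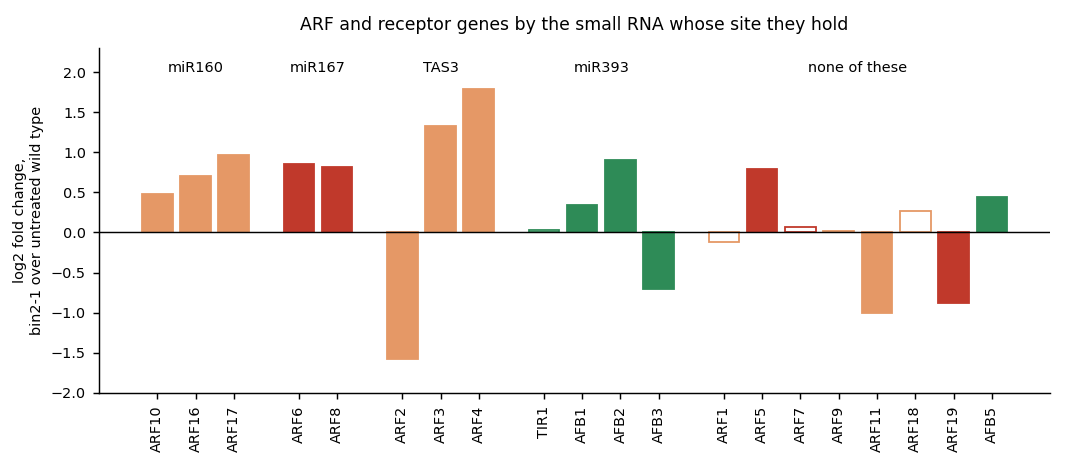
Log2 fold change in bin2-1 over untreated wild type of the ARF and receptor genes, grouped by the small RNA with a site of at most 4 unpaired bases in the transcript; filled bars are past q 0.05 and colours mark activator ARFs (red), repressor ARFs (orange) and receptors (green). The 5 bars under miR160 and miR167 lie between 0.48 and 0.96, and the bars under TAS3 between -1.58 and 1.79.

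With bzr1-D on top of bin2-1, 14 members out of 46 passed, 5 of them higher and 9 lower in bzr1-D/bin2-1 than in bin2-1; 24.8% of all genes tested passed in the authors' deposited table (11.9% higher and 12.8% lower). A change of at least 2-fold was seen in 3 members, beside 8.79% of all genes tested. Among Aux/IAA genes 4 of 26 tested were higher and 6 lower (median log2 fold change -0.09, beside -0.01 over all tested genes). IAA3 had 5.64 FPKM in bzr1-D/bin2-1 and 1.40 FPKM in bin2-1 (2.01, q = 0.000451 in the authors' deposited table). IAA33, a non-canonical member that acts in the distal root meristem, had 5.21 and 2.05 FPKM (1.35, q = 0.0134 in the authors' deposited table). IAA27 and IAA14 were higher by 0.67 and 0.52 in log2 units in the authors' deposited table. IAA5 had 3.85 FPKM in bzr1-D/bin2-1 and 7.54 FPKM in bin2-1 (-0.97, q = 0.00746 in the authors' deposited table), and IAA26, also known as PAP1, had 10.6 and 18.9 FPKM (-0.83, q = 0.000451). IAA30 had 6.89 and 12.1 FPKM (-0.82, q = 0.00157 in the authors' deposited table). IAA1, IAA2 and IAA9 were lower, between -0.61 and -0.35 in log2 units in the authors' deposited table, IAA2 with 154 FPKM in bzr1-D/bin2-1 and 235 FPKM in bin2-1. IAA6 had 0.785 and 0.152 FPKM without passing (2.37, q = 0.117 in the authors' deposited table).

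Of the ARF genes 3 of 15 passed with bzr1-D, a share of 20% beside the 24.8% of all genes. The repressor ARF18 had 1.58 FPKM in bzr1-D/bin2-1 and 3.19 FPKM in bin2-1 (-1.02, q = 0.000451 in the authors' deposited table). ARF3 had 4.38 and 6.18 FPKM (-0.50, q = 0.0148), and ARF9 had 14.6 and 10.7 FPKM (0.45, q = 0.0139), in the authors' deposited table. None of the 5 activators passed by the authors' q, and 1 of them, ARF6, had an unadjusted p under 0.05. ARF2 had 53.0 FPKM in bzr1-D/bin2-1 and 46.3 FPKM in bin2-1 (0.20, q = 0.336 in the authors' deposited table). Of the receptors TIR1 was lower, with 60.9 FPKM in bzr1-D/bin2-1 and 80.3 FPKM in bin2-1 (-0.40, q = 0.0161 in the authors' deposited table), and the other 4 had q between 0.478 and 0.895. AFB1 had 80.8 FPKM in bzr1-D/bin2-1 and 78.6 FPKM in bin2-1, AFB2 had 38.1 and 42.2 FPKM, AFB3 had 26.7 and 23.6 FPKM, and AFB5 had 30.9 and 34.0 FPKM.

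Of the 45 members tested in all 3 comparisons, 5 passed the threshold in each, all of them Aux/IAA genes (11.1%, beside 7.75% of the 19519 genes tested in all 3), and 7 passed in none (15.6%, beside 36.2%). A further 3 that passed in none were not tested throughout: IAA15 in any table, IAA29 with ABA and IAA32 with bzr1-D. The bin2-1 comparison shares untreated wild type with the ABA comparison and bin2-1 with the bzr1-D comparison, so the values below stand side by side and their signs are not independent. On the scale of the bin2-1 table, IAA3 had 15.4 FPKM with ABA, 1.34 FPKM in bin2-1, 5.41 FPKM in bzr1-D/bin2-1 and 4.75 FPKM in untreated wild type. IAA26 had 16.8, 18.1, 10.2 and 10.8 FPKM in these groups, and IAA1 had 27.5, 59.1, 40.3 and 40.2 FPKM. For these 3 genes the double mutant lay close to untreated wild type, by a difference of 0.19, -0.09 and 0.01 on the log2 scale, which was not tested. IAA5 had 3.87, 7.23, 3.69 and 1.10 FPKM, and IAA14 had 17.2, 6.29, 9.05 and 26.7 FPKM, with the double mutant between bin2-1 and untreated wild type. IAA28, ARF2 and IAA16 were past the threshold in bin2-1 but not between the double mutant and bin2-1 (q = 0.621, 0.336 and 0.311 in the authors' deposited table): IAA28 had 92.9 FPKM in bin2-1, 85.8 FPKM in bzr1-D/bin2-1 and 36.3 FPKM in untreated wild type, ARF2 had 44.4, 50.8 and 133 FPKM, and IAA16 had 143, 125 and 369 FPKM. IAA2 lay further from wild type in the double mutant, with 226, 148 and 356 FPKM in these 3 groups.

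**Figure D5:**
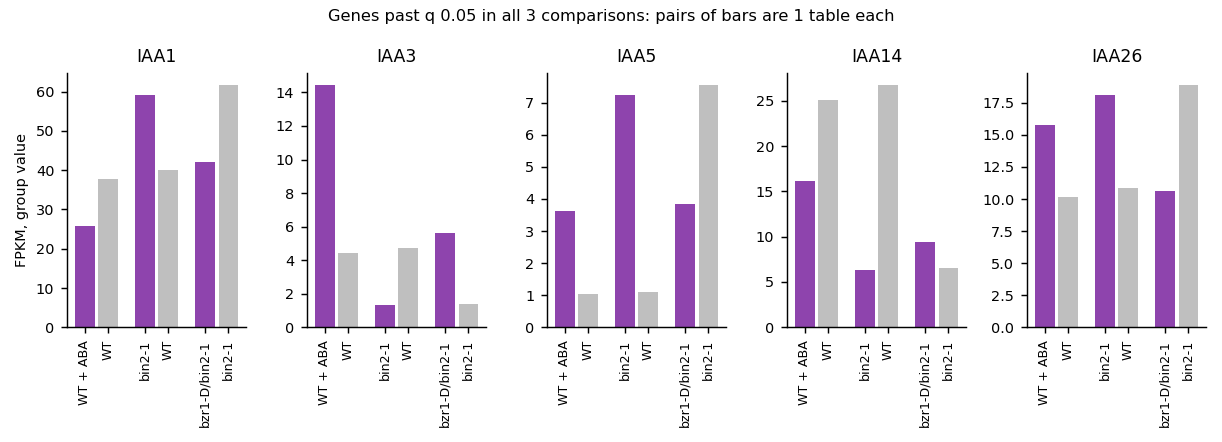
FPKM of the 5 genes past q 0.05 in all 3 comparisons; each pair of bars is 1 table, with the treated or mutant group in purple and the group it was set against in grey. IAA3 was higher with ABA, lower in bin2-1 and higher in bzr1-D/bin2-1 than in bin2-1, while IAA5 and IAA26 were higher with ABA, higher in bin2-1 and lower in bzr1-D/bin2-1 than in bin2-1.

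The ABA and bzr1-D tables share no library. Of the 18 genes past the threshold with ABA, 6 also passed with bzr1-D, which is 33.3% of the first list and 42.9% of the 14 of the second. Over all genes the shares were 41.1% and 40.3%, so the members' overlap was near the background. IAA1 and IAA3 moved in the same direction in both, and IAA5, IAA14, IAA26 and IAA30 in opposite directions; of all genes past in both, 42.9% moved in the same direction.

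Neighbours in the genome moved together in some comparisons and apart in others. IAA1 and IAA14 lie next to each other on chromosome 4, IAA2 and IAA7 on chromosome 3 and IAA3 and IAA17 on chromosome 1, with 0 coding genes between them in each case. In bin2-1 over untreated wild type the log2 fold changes were 0.56 for IAA1 and -2.09 for IAA14, and -1.82 for IAA3 and 0.36 for IAA17, while IAA2 and IAA7 had -0.66 and -0.72, all past the threshold in the authors' deposited table. With ABA, IAA1 and IAA14 were both lower (-0.55 and -0.63 in the authors' deposited table), IAA3 passed and IAA17 did not (1.70 and 0.21), and neither IAA2 nor IAA7 passed (-0.15 and -0.02). With bzr1-D, IAA1 was lower and IAA14 higher (-0.55 and 0.52 in the authors' deposited table), IAA2 passed and IAA7 did not (-0.61 and -0.17), and IAA3 passed and IAA17 did not (2.01 and 0.25). In the IAA7, IAA14, IAA16 and IAA17 group of close relatives the bin2-1 values were -0.72, -2.09, -1.37 and 0.36 in the authors' deposited table. ARF7 and ARF19, which act together in lateral root initiation, had 0.07 and -0.88 in the authors' deposited table. How the authors' counting treated any reads shared between such relatives was not stated, and the sequence identity of their transcripts was not measured here.

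Of the 49 genes, 15 overlap another gene in the TAIR10.1 annotation, and without a stated strand setting their reads cannot be fully separated. IAA3 overlaps AT1G04230 on the opposite strand, which had 14.7 FPKM with ABA and 13.7 FPKM without ABA, 11.6 FPKM in bin2-1 and 14.6 FPKM in untreated wild type, and 8.84 FPKM in bzr1-D/bin2-1 and 12.1 FPKM in bin2-1. It passed the threshold only in the bzr1-D table, where it was lower (-0.46, q = 0.0296 in the authors' deposited table) and IAA3 was higher. IAA5 overlaps AT1G15570, also on the opposite strand, with 9.75 FPKM in bin2-1 and 8.09 FPKM in untreated wild type. ARF19 overlaps AT1G19210 on the same strand, which was higher in bin2-1 and with ABA, where ARF19 was lower. AT1G19210 had 8.66 FPKM in bin2-1 and 1.98 FPKM in untreated wild type (2.13, q = 0.000188 in the authors' deposited table). With and without ABA it had 7.57 and 1.85 FPKM (2.03, q = 0.000385). In bzr1-D/bin2-1 it had 1.45 FPKM and in bin2-1 9.03 FPKM (-2.64, q = 0.000451), while ARF19 did not pass (0.19, q = 0.361 in the authors' deposited table). IAA34 overlaps AT1G15060 on the same strand, with 10.9 FPKM in bin2-1 and 13.6 FPKM in untreated wild type. In 3 cases an overlapping gene on the opposite strand passed in the same direction as the member in bin2-1. AT4G29070, beside IAA27, had 7.48 FPKM in bin2-1 and 11.1 FPKM in untreated wild type (-0.57, q = 0.00466 in the authors' deposited table). AT1G12810, beside AFB3, had 73.97 FPKM in bin2-1 and 111 FPKM in untreated wild type (-0.59, q = 0.0175 in the authors' deposited table), and AT1G19860, beside ARF5, had 9.83 and 7.53 FPKM (0.39, q = 0.0381). In the other comparisons none of these pairs had both genes past the threshold. With bzr1-D, AT1G12810 was lower (-0.74, q = 0.0159 in the authors' deposited table) and AFB3 did not pass (0.18). IAA27 was higher there (0.67) and AT4G29070 did not pass (-0.20). With ABA, AT1G19860 was higher (0.81, q = 0.000385 in the authors' deposited table) and ARF5 did not pass (0.34). The part of these overlapping genes in the values of IAA27, AFB3 and ARF5 was not tested.

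The promoters of Aux/IAA genes often held letters of the auxin response element. Each window ran from 250 bases before to 50 bases after the start of the gene in the TAIR10.1 annotation and was searched on both strands. TGTCTC was found in 12 of 29 Aux/IAA promoters (41.4%), 1 of 15 ARF promoters and 1 of 5 receptor promoters, beside 14.2% of 27443 promoters of all coding genes. TGTCGG, a form that ARF proteins bind more tightly, was found in 6 of 29 Aux/IAA promoters (20.7%), beside 5.12% of all. ACGTG, the core of the ABA response element, was in 10 of 29 (34.5%), beside 26.7% of all, and CACGTG, the G-box that contains it, in 5 of 29 (17.2%), beside 7.68%. Of the brassinosteroid response element that BZR1 binds, CGTGTG, which can overlap ACGTG by 4 letters, was in 6 of 29 (20.7%), beside 6.52%, and CGTGCG in 0 of 49 promoters of the family, beside 1.96% of all. The windows of 3 of the genes past the threshold in all comparisons are shown because they differ in these letters, 5′ to 3′ on the gene's strand with the matches in capitals:
IAA5, chr1:5366448-5366747, minus strand: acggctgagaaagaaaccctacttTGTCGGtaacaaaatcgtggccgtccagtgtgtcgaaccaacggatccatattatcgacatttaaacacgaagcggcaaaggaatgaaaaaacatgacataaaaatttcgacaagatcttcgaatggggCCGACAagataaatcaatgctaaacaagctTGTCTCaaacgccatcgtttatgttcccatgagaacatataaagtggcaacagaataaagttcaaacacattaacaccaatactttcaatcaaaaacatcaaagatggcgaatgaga
IAA1, chr4:8360746-8361045, plus strand: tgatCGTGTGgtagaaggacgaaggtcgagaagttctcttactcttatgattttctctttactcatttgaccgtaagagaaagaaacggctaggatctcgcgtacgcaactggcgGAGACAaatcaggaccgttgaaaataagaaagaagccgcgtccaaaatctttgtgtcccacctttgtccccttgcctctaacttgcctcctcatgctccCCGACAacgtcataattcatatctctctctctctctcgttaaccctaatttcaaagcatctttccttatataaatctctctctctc
IAA3, chr1:1129640-1129939, minus strand: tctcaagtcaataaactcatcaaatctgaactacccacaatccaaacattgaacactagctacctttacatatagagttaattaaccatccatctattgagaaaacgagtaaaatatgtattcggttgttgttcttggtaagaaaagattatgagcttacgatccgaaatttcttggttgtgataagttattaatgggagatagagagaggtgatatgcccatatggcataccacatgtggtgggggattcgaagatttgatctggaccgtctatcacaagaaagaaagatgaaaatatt
The IAA5 window holds TGTCTC once and TGTCGG or its reverse complement at 2 places. The IAA1 window holds each of TGTCTC and TGTCGG as the reverse complement, and CGTGTG. In the IAA3 window none of the searched letters was found. IAA14 and IAA26 also passed in all comparisons, and their windows, not shown, hold neither TGTCTC nor TGTCGG. The IAA14 window holds CACGTG, which contains ACGTG, and the IAA26 window holds CGTGTG. A match describes the letters of a window and does not show a bound site.

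Of 10 genes of the E3 ligase and its regulators 0 were past the threshold with ABA by the authors' q, and 0 had an unadjusted p under 0.05; the same counts held for the 5 TPL co-repressors, which lay between -0.19 and 0.21 in log2 units. In bin2-1 4 of 10 ligase genes passed, 2 higher and 2 lower, a share of 40% beside the 51.0% of all genes tested. The adaptor ASK2 had 106 FPKM in bin2-1 and 161 FPKM in untreated wild type (-0.61, q = 0.000828 in the authors' deposited table). AFB4, the closest relative of AFB5 and a gene of the receptor family outside the members, was counted in this list. It had 8.66 and 6.06 FPKM in the same groups (0.51, q = 0.0362 in the authors' deposited table). Among the co-repressors TPR4 rose and TPR2 fell in bin2-1, at 0.51 and -0.45 in log2 units in the authors' deposited table, while TPL had 45.8 and 54.2 FPKM (q = 0.202), TPR1 had 33.2 and 27.5 FPKM (q = 0.0934) and TPR3 had 13.5 and 15.7 FPKM (q = 0.214). With bzr1-D, 0 of 10 ligase genes passed by the authors' q and 2 had an unadjusted p under 0.05. TPR3 fell, with 10.03 FPKM in bzr1-D/bin2-1 and 14.1 FPKM in bin2-1 (-0.49, q = 0.00257 in the authors' deposited table), and the other 4 co-repressors had q between 0.305 and 0.966.

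Of the auxin synthesis genes, which make the ligand, 3 of 7 tested passed with ABA, 6 of 8 in bin2-1 and 3 of 9 with bzr1-D (42.9%, 75% and 33.3%), beside 24.6%, 51.0% and 24.8% of all genes tested. TAA1 makes indole-3-pyruvate and YUC enzymes turn it into auxin. With ABA all 3 fell, the largest changes being of YUC6, with 0.602 FPKM with ABA and 1.55 FPKM without ABA (-1.36), and TAA1, with 16.1 and 26.6 FPKM (-0.72), both at q = 0.000385 in the authors' deposited table. In bin2-1 3 of 8 tested genes rose and 3 fell: YUC5 had 6.88 FPKM in bin2-1 and 0.906 FPKM in untreated wild type (2.93) and YUC3 had 6.09 and 25.4 FPKM (-2.06), both at q = 0.000188 in the authors' deposited table. With bzr1-D, YUC5 had 3.09 FPKM in bzr1-D/bin2-1 and 7.18 FPKM in bin2-1 (-1.22) and YUC3 had 12.0 and 6.35 FPKM (0.92), both at q = 0.000451 in the authors' deposited table, and 1 rise and 2 falls were counted among 9 tested genes.

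Of the genes that lie downstream of ARF proteins, 3 of 11 tested passed with ABA, 5 of 11 in bin2-1 and 2 of 11 with bzr1-D (27.3%, 45.5% and 18.2%), shares near those of all genes tested (24.6%, 51.0% and 24.8%). With ABA the 3 fell. SAUR76, an early auxin gene, had 4.48 FPKM with ABA and 9.55 FPKM without ABA (-1.09), and ATHB8, a vascular target of ARF5, had 5.67 and 10.2 FPKM (-0.85), both at q = 0.000385 in the authors' deposited table. In bin2-1 4 of 11 rose and 1 fell, led by SAUR9, with 10.9 FPKM in bin2-1 and 0.945 FPKM in untreated wild type (3.53), and SAUR76, with 62.1 and 10.2 FPKM (2.61), both at q = 0.000188 in the authors' deposited table. With bzr1-D 2 of 11 fell, SAUR9 with 4.32 FPKM in bzr1-D/bin2-1 and 11.4 FPKM in bin2-1 (-1.40) and TMO5, another target of ARF5, with 8.05 and 14.2 FPKM (-0.82), both at q = 0.000451 in the authors' deposited table. LBD16, a target of ARF7 and ARF19 in lateral root initiation, was lower with ABA, at 5.89 FPKM with ABA and 8.96 FPKM without ABA (-0.61, q = 0.0233 in the authors' deposited table). SAUR15 and SAUR19 were listed at 0 in every group.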

How the data were processed

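RNA from root tips was sequenced in 8 libraries, 4 groups of 2 by their titles, with TruSeq libraries on a HiSeq2000, per the labels' protocols. Per the submitters' processing notes, TopHat, Cufflinks and TAIR10 were used; versions, strand and other settings were not stated. Levels are taken to be FPKM as the authors deposited them, since the notes name Cufflinks and the headers name only groups. From each deposited ratio (fold change) the log2 was computed with no pseudocount. Each p-value and q-value was used as the authors gave it. The smallest p is 5e-05, so many genes share the smallest q of a table (0.000385, 0.000188 and 0.000451).

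Levels were compared within a table; where the 4 groups are set side by side, tables were scaled by the median ratio of the group they share (1.07, from 1.06 to 1.07 over 18195 genes, and 0.959, from 0.955 to 0.978 over 18638 genes). The members, the 5 lists of 49 other pathway genes and the grouping by small RNA were chosen with earlier results of these data known. Of the 49 members, 47, 48 and 46 were tested (p below 1) in the ABA, bin2-1 and bzr1-D tables. Genes named in full are those past q 0.05 with at least a 2-fold change, the 5 most abundant, the receptors, and the 2 largest changes past the threshold of each other list; other members were named after their values were seen. Of 33557 identifiers 32810 are in the RefSeq annotation of TAIR10.1, from which names, windows, transcripts (the longest of a gene) and miRNAs were taken. Only the code of the recomputed adjustment was tested on simulated data, which does not check the authors' p and q. Analyses used Python 3.11.15 and pandas 2.3.3. The alternatives tried were a stricter q of 0.01, at least a 2-fold change, genes of at least 1 FPKM, a recomputed Benjamini-Hochberg adjustment, centring on the median, and a minimum of 1.5-fold with a pseudocount of 1 FPKM.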

Additional observations from a re-analysis of the deposited data

How the results depend on the processing

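Counts of genes past the threshold, per class, direction and comparison, were recomputed under 6 alternatives. Recomputing the adjustment, leaving out genes under 1 FPKM and centring on the median kept all 18 counts within 1.5 times their value. Little could move under these settings, so the unchanged counts do not measure robustness. The first 2 reuse the authors' p. Centring keeps the authors' q and only subtracts median log2 fold changes of 0.008 (ABA), -0.02 (bin2-1) and -0.009 (bzr1-D). A q under 0.01 moved 5 counts: with ABA the lower receptors came to 0, and with bzr1-D the higher Aux/IAA genes to 2, the higher ARF genes to 0, the lower ARF genes to 1 and the lower receptors to 0. A minimum of 2-fold moved 15. It left, with ABA, 4 higher and 0 lower Aux/IAA genes, 0 higher and 1 lower ARF gene and 0 lower receptors. In bin2-1 it left 2 higher and 7 lower Aux/IAA genes, 2 higher ARF genes, and 0 higher and 0 lower receptors. With bzr1-D it left 2 higher and 0 lower Aux/IAA genes, 0 higher and 1 lower ARF gene and 0 lower receptors. A minimum of 1.5-fold with a pseudocount of 1 FPKM moved 8: with ABA to 6 higher and 1 lower Aux/IAA genes and 0 lower receptors, in bin2-1 to 3 higher Aux/IAA genes and 1 higher receptor, and with bzr1-D to 0 higher and 1 lower ARF gene and 0 lower receptors. The alternatives that moved counts demand a larger change or a smaller q by construction, and the receptor calls are the ones that rest on changes under 2-fold throughout.

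No paired analysis was possible because the tables hold 1 value per group and no value per library; for the same reason leaving out each library in turn was not run. Without counts, the depth behind lowly expressed members such as IAA6, IAA29 and IAA32, and behind IAA34 in the mutants, is unknown.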
